A study of Caenorhabditis elegans with 2 samples.

Results

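The 261 genes annotated as microRNA (miRNA) genes in Caenorhabditis elegans were examined for RNA polymerase II. They were all genes of the miRNA biotype in Ensembl release 115 on the WBcel235 (ce11) genome, and they made up 261 of 46890 annotated nuclear genes. RNA polymerase II was mapped by chromatin immunoprecipitation and sequencing (ChIP-seq) with AMA-1, its large subunit, as the labelled antibody target, in whole young adult worms of mixed sex. There were 2 biological replicates of 1 group and no second condition. Both came from strain YL489, with the allele unc-119(ed3) III and the insertion vrIs104. In that insertion pPIE-1, a promoter known for germline activity, is joined to AMA-1 with a C-terminal GFP and FLAG tag and to the PUF-5 3'UTR, beside unc-119 (+). The part of AMA-1 that the antibody bound, tag or protein, was not given in the sources used here. Germline and somatic polymerase therefore cannot be told apart. The control library that the labels name was not analysed here.

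A miRNA is a short RNA that, loaded into an Argonaute protein, pairs with messenger RNAs through its seed, bases 2 to 8 from its 5′ end, and lowers their output. RNA polymerase II makes the long primary transcript, Drosha and its partner Pasha release the hairpin in the nucleus, and Dicer cuts the mature strand from it in the cytoplasm. In worms lin-4 and let-7 were the founding examples, timing larval development, and the mir-35 and mir-51 families are known for roles in the embryo. The annotated 5′ end of most miRNA genes is that of the hairpin, not of the primary transcript, whose true start can lie well upstream.

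Each deposited list gives regions with a summit, the base of strongest signal, and with the authors' own signal value, which ranks regions within its list only (rank 1 is the strongest). The optimal list, the regions past the authors' irreproducible discovery rate (IDR) threshold, holds 887 regions, 858 of them nuclear. The candidate lists, which the labels describe as peaks and background, hold 30000 regions for the pooled replicates, 28020 for replicate 1 and 30000 for replicate 2. A gene was called occupied where an optimal summit fell no farther than 1000 bp from the annotated 5′ end. The lists carry no read counts, so the depth behind each region is unknown.

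The mir-51 family supplied 5 of the 15 occupied genes, and its 6 members share the seed ACCCGUA. Their mature strands are shown first below, read from the WBcel235 genome at the mature positions of the Ensembl annotation. The other lines show well-known genes treated further on (mir-237, mir-62 and let-7), the gene at the strongest optimal peak (mir-4936) and mir-35, of the largest seed family, so that shared and distinct seeds can be seen. Each is written 5′ to 3′ with bases 2 to 8 in capitals.
mir-51 (5p): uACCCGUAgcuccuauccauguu
mir-52 (5p): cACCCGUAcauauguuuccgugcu
mir-53 (5p): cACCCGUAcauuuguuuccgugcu
mir-54 (3p): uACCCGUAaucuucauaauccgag
mir-55 (3p): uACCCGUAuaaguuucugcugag
mir-56 (3p): uACCCGUAauguuuccgcugag
mir-62 (3p): uGAUAUGUaaucuagcuuacag
mir-237 (5p): uCCCUGAGaauucucgaacagcu
mir-4936 (3p): uGCUUUGUggcuuugcuggua
let-7 (5p): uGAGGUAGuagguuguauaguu
mir-35 (3p): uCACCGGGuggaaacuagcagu

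The family's mature strand comes from the 5′ arm of the hairpin in mir-51, mir-52 and mir-53 and from the 3′ arm in mir-54, mir-55 and mir-56. The 6 genes lie at 3 loci. On chromosome IV, mir-52 stands alone at chrIV:14034008-14034107 on the plus strand, and mir-53 and mir-51 form a cluster between chrIV:11026013-11027691 on the minus strand. On chromosome X, mir-54, mir-55 and mir-56 form a cluster at chrX:13144691-13145094 on the minus strand, inside an intron of F09A5.3, which is read from the other strand.

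Of the 6 mir-51 family genes 5 were occupied, beside 5.75% of all miRNA genes and 2.96% of other genes. All 6 had a candidate summit within 1000 bp in each replicate, beside 36.4% of all miRNA genes and 22.1% of other genes. The 6 genes stand at only 3 loci. At mir-52 the optimal summit lay 118 bp upstream of the annotated 5′ end, in the peak chrIV:14033799-14033958, with rank 252 and a signal of 62.0. The summit also lies in the annotated non-coding RNA gene Y37A1B.330. The overlapping region ranked 64 in replicate 1, with a signal of 47.4, and 359 in replicate 2, with a signal of 36.2. Both replicates placed mir-52 among their strongest 887 regions, although the replicate 1 summit lay 111 bp from the optimal one and that of replicate 2 lay 7 bp from it.

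For mir-54, mir-55 and mir-56 a single optimal peak, chrX:13144995-13145274, ranked 314 with a signal of 58.0. Its summit lay 41 bp upstream of mir-54, the first gene of the cluster, 211 bp upstream of mir-55 and 348 bp upstream of mir-56. The overlapping region ranked 613 in replicate 1, with a signal of 21.8, and 248 in replicate 2, with a signal of 42.3. The cluster therefore counts 3 genes but shows 1 optimal peak, at its head. The replicate lists held further regions past the last gene, one of rank 435 in replicate 1, stronger there than the region at the head, and one of rank 948 in replicate 2. A 4th annotated gene, mir-55b, overlaps mir-55 on the opposite strand and shares the same summit, so the polymerase signal cannot be assigned to one of these strands.

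At mir-51 the optimal summit lay 48 bp upstream, in the peak chrIV:11026020-11026299, with rank 516 and a signal of 47.4. The summit also lies in the annotated non-coding RNA gene F36H1.17. The overlapping region ranked 1284 in replicate 1, with a signal of 17.0, and 107 in replicate 2, with a signal of 55.9. Replicate 1 thus did not hold mir-51 among its strongest 887 regions, and its summit lay 130 bp from the optimal one. The summit lay 1531 bp downstream of mir-53, the upstream member of the cluster, which was not occupied. The strongest pooled candidate within 1000 bp of mir-53 ranked 10798, with a signal of 13.6.

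**Figure D1:**
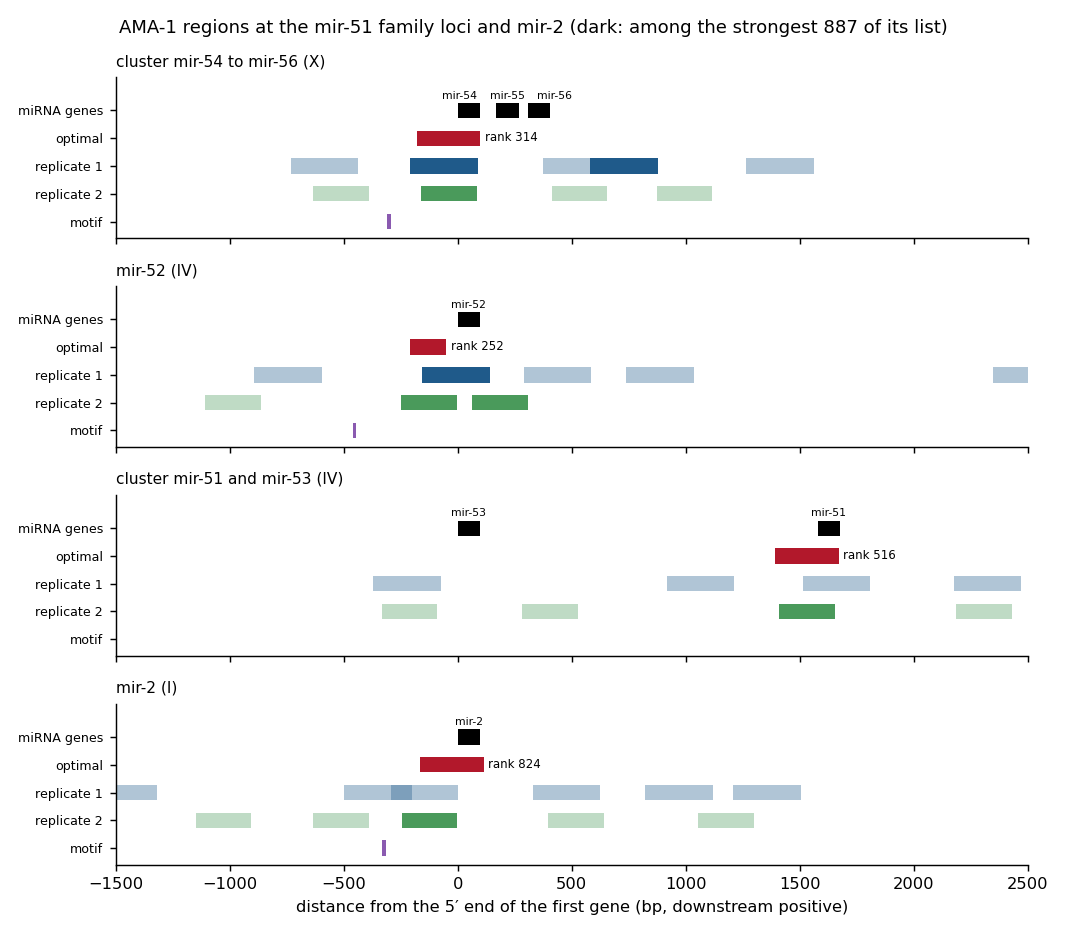
Deposited regions at the mir-51 family loci and at mir-2, as distance in bp from the annotated 5′ end of the first gene of each locus (downstream positive). Black bars are miRNA genes, red bars optimal peaks with their ranks, blue and green bars candidate regions of replicates 1 and 2 (dark where among the strongest 887 of the list), and purple marks the CTCCGCCC motif. The plotted optimal peaks of mir-54 to mir-56, mir-52 and mir-2 lie over or just upstream of the first gene, whereas that of the mir-53 and mir-51 cluster lies at mir-51. A further optimal peak, of rank 602 and signal 44.3, lies upstream of mir-2 beyond the plotted range.

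Beyond this family, the strongest optimal peak at any miRNA gene was at mir-4936, an intergenic gene at chrIII:3249151-3249260. The peak chrIII:3249130-3249294 ranked 60 with a signal of 111.0, and its summit lay inside the annotated gene, 91 bp from its 5′ end. The overlapping region ranked 156 in replicate 1, with a signal of 34.9, and 45 in replicate 2, with a signal of 81.1. This gene was strong in both replicates. The nearest protein-coding 5′ end to the summit, that of nduf-9, lay 667 bp away.

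Within the intron of ugt-50 lies mir-62 (chrX:12692608-12692665), which is known as a mirtron, a hairpin formed by a spliced intron. It had 3 optimal summits in its window, 464 bp upstream, 579 bp downstream and 966 bp downstream of its 5′ end, all inside ugt-50. The upstream one ranked 393 (signal 52.9) in the optimal list, 760 in replicate 1 and 903 in replicate 2. The farthest one ranked 430 (signal 51.1) and 67 in replicate 1, but no region of replicate 2 overlapped it. The one 579 bp downstream ranked 761 (signal 39.9), and it had an overlapping region, of rank 3364, in replicate 2 alone. These regions lie along a host gene on the same strand, so host and miRNA transcription cannot be told apart here. Of the genes that share the seed of mir-62, mir-90 had a pooled candidate of rank 1803 (signal 28.9) and mir-50 one of rank 13216 (signal 12.1).

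2 other intronic genes were occupied with a summit close to the 5′ end. At mir-2, whose seed AUCACAG it shares with mir-43, mir-250 and mir-797, the summit lay 26 bp upstream, in an intron of ppfr-1 on the same strand. It ranked 824 with a signal of 38.8, near the list's lowest signal of 37.7. A stronger optimal peak, of rank 602 and signal 44.3, lay farther upstream, outside the window. The overlapping regions ranked 2163 in replicate 1 and 746 in replicate 2, with summits 120 and 98 bp from the optimal one. At mir-5595, in an intron of nurf-1 on the opposite strand (chrII:14399565-14399629), the summit lay 180 bp upstream and ranked 841 with a signal of 38.5. The overlapping regions ranked 3593 in replicate 1 and 764 in replicate 2. Both genes were near the bottom of the optimal list, and their overlapping regions were among the strongest 887 in replicate 2 but not in replicate 1.

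The remaining 5 occupied genes had their summits near a tRNA gene or a protein-coding 5′ end. A summit 659 bp downstream of mir-237 (chrX:8154084-8154182), the relative of lin-4 with the same seed, lay on the tRNA gene F22F1.t3 and ranked 685, with a signal of 41.8. Its overlapping regions ranked 2614 in replicate 1, with a signal of 13.0, and 1490 in replicate 2, with a signal of 20.3. For mir-1819 the summit 923 bp downstream lay on the tRNA gene R11.t3, and for mir-4921 the summit 943 bp downstream lay 34 bp from the tRNA gene Y59E1B.t2. As background, tRNA genes are transcribed by RNA polymerase III. Signal of the miRNA gene and of the tRNA gene cannot be told apart at these summits. The summits at mir-354 and mir-353, which overlap the ribosomal protein genes rps-20 and rpl-24.1, lay 842 and 986 bp upstream, within 167 bp of the 5′ end of ekl-4 and 227 bp of that of rpl-24.1. At 4 of these 5 genes the replicates differed widely. The regions at mir-1819 ranked 27750 in replicate 1 and 320 in replicate 2, those at mir-354 ranked 23069 and 360, those at mir-4921 ranked 9592 and 529, and those at mir-353 ranked 5490 and 432. The neighbours of mir-4921 in its cluster (mir-1018, mir-4925, mir-4923.1 and mir-4923.2) had a candidate in replicate 2 alone, of rank 10640. mir-2212, which forms a cluster with mir-1819, was not occupied and had a pooled candidate of rank 1559, with a signal of 30.6.

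In all, 14 distinct optimal summits lay within 1000 bp of the 15 occupied genes. Of these, 9 summits, at 10 genes, had no protein-coding 5′ end within 500 bp and no small RNA gene within 250 bp, 2 had a protein-coding 5′ end within 500 bp, and 3 were within 250 bp of a tRNA, small nucleolar RNA (snoRNA) or small nuclear RNA (snRNA) gene. Among all nuclear optimal summits, 37.2% fell in the first class, 24.4% in the second and 38.5% in the third.

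Across the whole class, 15 of 261 miRNA genes were occupied, 5.75% with an exact Clopper-Pearson 95% interval of 3.25 to 9.30%. The interval covers counting error over genes, and genes are not replicates. The background over the 46629 other nuclear genes was 2.96%, and 1.62% of all nuclear bases lay within 1000 bp of an optimal summit. Protein-coding genes stood at 2.33%, snoRNA genes at 23.4% and tRNA genes at 53.1%. Genes annotated as ncRNA stood at 4.78% and snRNA genes at 6.98%, both inside the miRNA interval. The 15363 piRNA genes stood at 0.709%, which lowers the background of other genes. miRNA genes thus lay above protein-coding genes, near ncRNA and snRNA genes, and well below the tRNA and snoRNA genes that fill much of the list. Counting a cluster (same-strand genes whose 5′ ends follow each other within 2000 bp) once, 13 of 223 loci were occupied (5.83%).

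The wider candidate lists touched many more of them. A pooled candidate summit lay within 1000 bp of 131 miRNA genes (50.2%, interval 44.0 to 56.4%), against a background of 32.9% of other genes and 35.5% of nuclear bases. Candidate summits were found at 137 miRNA genes in replicate 1 (52.5%, other genes 37.2%) and 132 in replicate 2 (50.6%, other genes 37.6%). They were found in both replicates at 95 genes (36.4%, interval 30.6 to 42.6%), against a background of 22.1% of other genes and 22.6% of bases. By that measure piRNA genes stood at 11.9%, protein-coding genes at 26.2%, ncRNA genes at 28.6% and snRNA genes at 35.7%. The snoRNA genes stood at 67.9% and tRNA genes at 79.1%. For pooled candidates piRNA genes stood at 22.9% and protein-coding genes at 37.6%. The piRNA genes thus lower both backgrounds of other genes. At 87 miRNA genes neither replicate had a candidate, at 42 only replicate 1 did and at 37 only replicate 2 did. That split was not counted for other genes. Since the labels call these lists peaks and background, a candidate alone is no peak call.

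**Figure D2:**
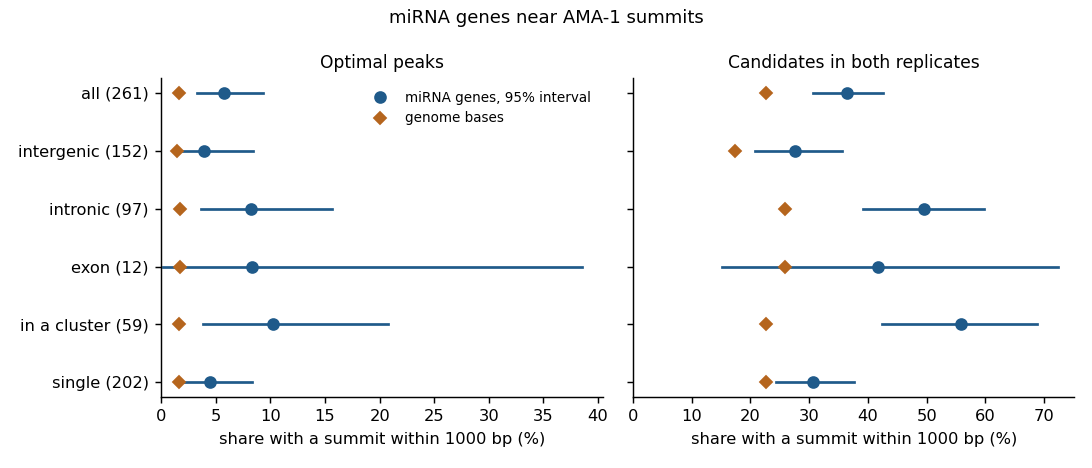
Share of miRNA genes with an AMA-1 summit within 1000 bp of the annotated 5′ end (x axis, %), for optimal peaks (left) and for candidates in both replicates (right), by position and clustering, with the number of genes in brackets. Blue points carry exact 95% intervals, and brown diamonds give the share of genome bases that near a summit, inside or outside protein-coding genes where the group is so defined. All 261 genes stood at 5.75% and 36.4%, and intronic and clustered genes lay farthest to the right among the larger groups for candidates in both replicates.

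Strength was compared within the replicates as well. Among the 887 strongest regions of replicate 1, summits lay near 10 miRNA genes (3.83%, interval 1.85 to 6.93%, other genes 2.29%). Among those of replicate 2 they lay near 14 (5.36%, interval 2.96 to 8.84%, other genes 3.05%). Only 6 genes (2.30%, interval 0.848 to 4.94%) met this in both replicates, mir-4936, mir-52, mir-54, mir-55, mir-56 and mir-55b. The background was 1.34% of other genes, and ncRNA genes stood at 2.33%. In each of these 3 comparisons the share of other genes lay inside the miRNA interval. These 6 genes stand at 3 places in the genome. The best ranks in the 2 lists had a Spearman's rho of 0.452 over the 95 genes with candidates in both. This is given as a description, because clustered genes share summits. At 63 of the 95 genes the best region ranked above the median of both lists.

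**Figure D3:**
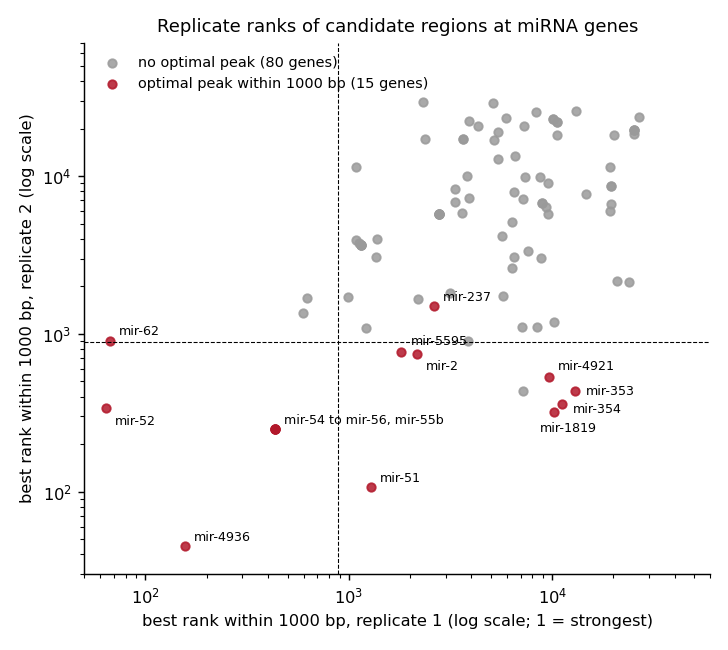
Best rank of a candidate region within 1000 bp in replicate 1 (x axis) against replicate 2 (y axis), both on log scales with 1 the strongest, for the 95 miRNA genes with a candidate in both. Red points are the 15 occupied genes and dashed lines mark rank 887. The lower left corner holds mir-4936, mir-52 and the mir-54 to mir-56 locus, while mir-4921, mir-353, mir-354 and mir-1819 lie far to the right, strong in replicate 2 only.

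The genes were then divided by position relative to host genes. Of 152 intergenic miRNA genes 6 were occupied (3.95%, interval 1.46 to 8.39%), and of 97 intronic ones 8 were (8.25%, interval 3.63 to 15.6%). These intervals overlap. Candidates in both replicates were found at 27.6% of intergenic genes (interval 20.7 to 35.5%) and at 49.5% of intronic genes (interval 39.2 to 59.8%), and here the intervals did not overlap. Genes of a cluster share summits, such as the 7 genes mir-35 to mir-41 in an intron of Y62F5A.9. The intervals count such genes as separate and so are too narrow, and this split was not counted by locus. The background moved in the same direction, with 17.3% of bases outside and 25.8% of bases inside protein-coding genes lying that close to candidate summits of both replicates. Intronic genes on the strand of the host (47.8% of 67) and on the other strand (53.3% of 30) had overlapping intervals of 35.4 to 60.3% and 34.3 to 71.7%. Only 12 genes overlapped an exon, 1 of which was occupied, so little can be said of them.

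Clustered genes, 59 in 21 clusters, had candidates in both replicates at 55.9% (interval 42.4 to 68.8%) against 30.7% of 202 single genes (interval 24.4 to 37.6%). Members of a cluster share summits, so these 59 genes are fewer independent places than their number. Occupied genes numbered 6 of 59 (10.2%) in clusters and 9 of 202 (4.46%) among single genes, with overlapping intervals. A protein-coding 5′ end within 500 bp made no such split, with 2 of 38 genes occupied (5.26%) beside 13 of 223 without one (5.83%). Of the 10 genes with a tRNA, snoRNA or snRNA gene within 500 bp, 3 were occupied (interval of the share 6.67 to 65.2%). Candidates in both replicates were found at 8 of these 10 (interval of the share 44.4 to 97.5%). Of the 251 genes without such a neighbour, 12 were occupied (4.78%). Among these 251, 34.7% had candidates in both replicates (interval 28.8 to 40.9%).

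The distance of the summits from the 5′ ends was counted in bins of 250 bp, with no test between the classes. Pooled candidate summits fell in the 250 bp upstream of the 5′ end at a rate of 16.5 per 100 miRNA genes and 12.2 per 100 protein-coding genes, and over the 16 bins within 2000 bp the median was 10.7 and 7.54 per 100. The miRNA genes thus had more summits at most distances. For intronic miRNA genes the rate was 25.8 per 100 just upstream and 8.25 per 100 in the 250 bp just downstream, the bin that holds the hairpin, and it was 21.6 per 100 in the next bin. That low downstream value was not seen in the replicates taken singly. In replicate 1 the rates just upstream, just downstream and in the next bin were 22.7, 16.5 and 18.6 per 100, and in replicate 2 they were 19.6, 14.4 and 14.4. Intergenic genes showed 11.8 per 100 just upstream and 9.21 just downstream in the pooled list. The intronic value rests on 25 summits at 97 genes, some of which share a cluster.

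**Figure D4:**
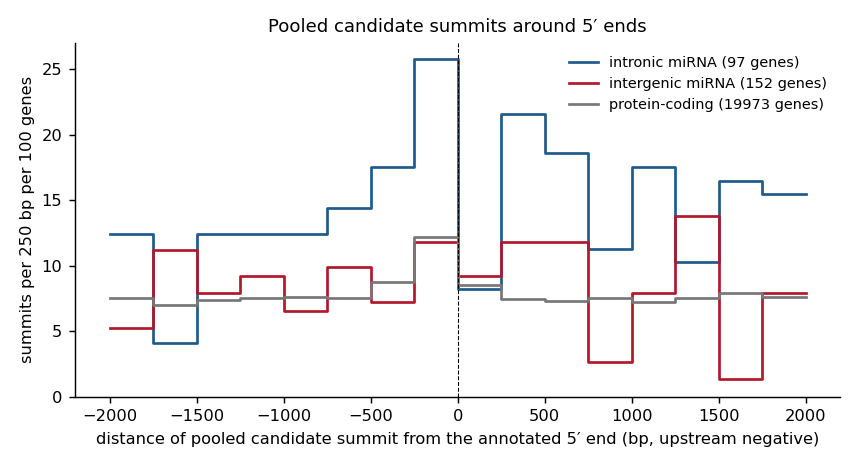
Pooled candidate summits per 250 bp bin per 100 genes (y axis) by distance from the annotated 5′ end in bp (x axis, upstream negative), for intronic miRNA, intergenic miRNA and protein-coding genes. The bin just upstream stood at 25.8 for intronic miRNA genes, 11.8 for intergenic ones and 12.2 for protein-coding genes, and bins of the miRNA groups rest on few summits.

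By chromosome, 8 of the 15 occupied genes lay on X, where 10.8% of 74 miRNA genes were occupied (interval 4.78 to 20.2%). Other genes on X stood at 6.27%, inside that interval. The 8 are not 8 separate places, because mir-54, mir-55, mir-56 and mir-55b share 1 optimal peak. At mir-237, mir-1819 and mir-4921 the summits lay on or near a tRNA gene. The shares were 9.09% of 33 on I (other genes 4.84%), 4.0% of 50 on IV (1.5%), 3.70% of 27 on III (5.01%) and 2.04% of 49 on II (3.53%). None of the 28 on V was occupied (interval to 12.3%, other genes 1.71%). Pooled candidates were found at 77.8% of miRNA genes on III (other genes 56.8%), 67.3% on II (38.2%), 52.0% on IV (26.8%), 45.5% on I (51.1%), 36.5% on X (29.5%) and 32.1% on V (26.1%). On I alone the miRNA share of pooled candidates was below that of other genes. Chromosome IV held 19654 of the other genes, and the shares were not adjusted for the gene classes on each chromosome.

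The highest pooled signal per gene had a median of 16.3 over the 131 miRNA genes with a pooled candidate, with quartiles of 11.1 and 25.1. It was 13.9 over other genes, 14.7 over protein-coding genes, 23.0 over snoRNA genes and 49.8 over tRNA genes. Intronic miRNA genes had a median of 18.6 and intergenic ones 13.6. Among genes that were not occupied, the strongest pooled candidates were at mir-2214 (rank 941, signal 36.9), mir-45 (992, 36.1), mir-5549 (993, 36.1), mir-238 (1109, 34.6) and mir-4920 (1338, 32.2), just under the lowest optimal signal of 37.7. mir-2214 ranked 623 in replicate 1 and 1679 in replicate 2, and mir-5549 ranked 1213 and 1088. By contrast mir-45 ranked 7157 in replicate 1 and 436 in replicate 2.

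In the mir-35, mir-64, let-7, mir-58 and mir-44 families no gene was occupied, beside 5.75% of all miRNA genes and 2.96% of other genes. With so few genes, many in shared clusters, this does not set these families apart from those shares. All 8 genes of the mir-35 family, of the seed CACCGGG, had candidates in both replicates. The share was 36.4% of all miRNA genes, 55.9% of clustered ones and 22.1% of other genes. The 8 genes stand at only 2 loci and share regions. mir-37 to mir-41 shared a best pooled region of rank 6918 with a signal of 17.1, just above the miRNA median of 16.3, and their best regions ranked 2786 in replicate 1 and 5763 in replicate 2. The pooled summit lay past the last hairpin, 436 bp downstream of the 5′ end of mir-41. The 5′ end of the host Y62F5A.9, on the other strand, lay 533 bp downstream of that of mir-41. Host and miRNA signal cannot be told apart at this region. mir-35 and mir-36 had a best pooled rank of 11310 with a signal of 13.3. mir-42 ranked 24572 with a signal of 7.35, so the family spanned both sides of the median. In the mir-64 family, of the seed AUGACAC, the cluster of mir-229, mir-64, mir-65 and mir-66 in an intron of gcn-1 shared a region of rank 1388 with a signal of 31.8. It ranked 1151 in replicate 1 and 3639 in replicate 2. The 5th member, mir-63, had a pooled rank of 18725.

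In the let-7 family, of the seed GAGGUAG, 2 of 5 genes had a pooled candidate, beside 50.2% of all miRNA genes and 32.9% of other genes. let-7, which is annotated as a primary transcript of 1732 bp, had no region within 1000 bp of its 5′ end in any list, the nearest summit of replicate 1 lying 1160 bp upstream. The same was true of mir-84 and mir-795. mir-48 ranked 11843 and mir-241 ranked 11067 in the pooled list, with signals of 12.9 and 13.4. lin-4, which acts in early larvae, lies in an intron of F59G1.4 on the same strand and ranked 7085 in the pooled list with a signal of 17.0. Its best region in replicate 1 ranked 989 and lay 680 bp downstream. That in replicate 2 ranked 1715 and lay elsewhere, 480 bp upstream. Its fellow timer lin-4 thus had candidates in both replicates, while let-7 had none near the start of its primary transcript. The 2 genes were measured from unlike points, the start of a primary transcript for let-7 and of a hairpin for lin-4. The annotated mature strands of let-7 (chrX:14744191-14744255) lie more than 1000 bp downstream of that start. Its hairpin was therefore outside the window, and the 2 genes cannot be set against each other. At lin-4 host and miRNA signal cannot be told apart.

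Among the mir-58 family and its relatives, mir-80 had the strongest region, with a pooled rank of 4060 and a signal of 21.5, and it ranked 3132 in replicate 1 and 1812 in replicate 2. mir-58.1, known as an abundant worm miRNA, ranked 7714 in the pooled list with a signal of 16.3. mir-81 and mir-82, in introns of gid-2, had no candidate in any list. In the mir-44 family, mir-45 is described above, mir-44 ranked 24572, mir-61 ranked 18719 and mir-247 had none.

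**Figure D5:**
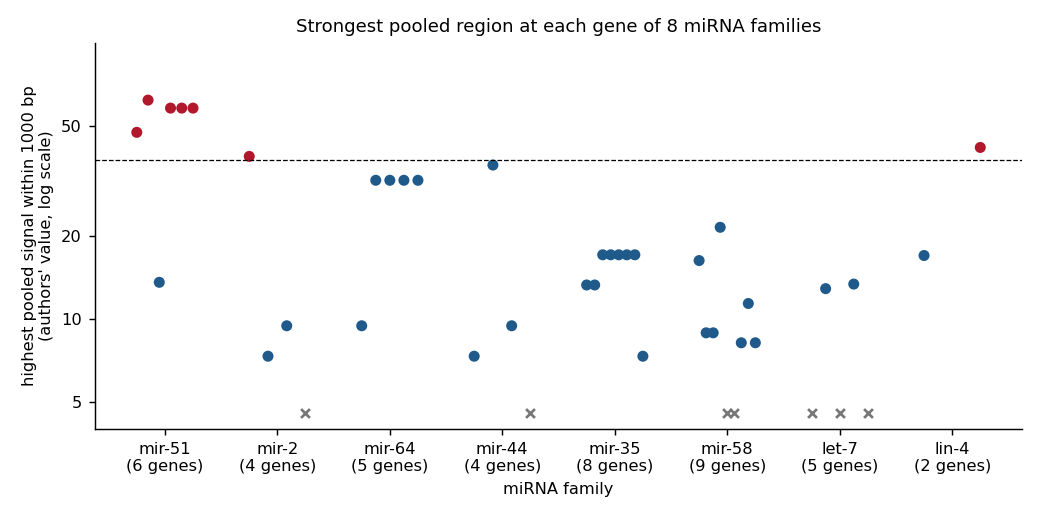
Highest pooled signal within 1000 bp of each gene (y axis, authors' value, log scale) in 8 miRNA families (x axis). Red points are occupied genes, blue points are genes with a candidate only, grey crosses at the base mark genes with no pooled candidate, and the dashed line is the lowest optimal signal, 37.7. The mir-51 family has 5 of 6 genes above the line, and genes of 1 cluster share a value.

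Single well-known genes varied as widely. mir-71, linked to lifespan, had a pooled region of rank 1383 (signal 31.8), with its summit 374 bp downstream of the 5′ end. The best region in replicate 1 ranked 593 and lay 347 bp downstream. In replicate 2 the best region was another one, of rank 1364 and 826 bp downstream. An optimal summit of rank 660 lay 1246 bp upstream of mir-71, outside its window. mir-34, linked to stress responses, ranked 2743 in the pooled list, 2188 in replicate 1 and 1655 in replicate 2. mir-124, known from sensory neurons, ranked 14027 in the pooled list and had no candidate in replicate 1. mir-228 ranked 17338 and mir-83 ranked 15992. mir-1, the muscle miRNA, had a candidate in replicate 1 alone, of rank 6885, and lsy-6, which acts in a single taste neuron pair, had none in any list. In whole worms a gene used in few cells and a gene used weakly in many cannot be told apart.

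Upstream sequence was searched for 2 motifs on both strands of the 1000 bp before the 5′ end. CTCCGCCC, a motif described upstream of worm miRNA genes, was present at 35 of 261 miRNA genes (13.4%, interval 9.52 to 18.2%), against 4.70% of protein-coding genes and 3.91% of all nuclear genes. With clusters counted once it was present at 25 of 223 loci (11.2%). Because the motif was described at such genes, its higher share here is no independent finding. GAGANGAG was present at 40 (15.3%), against 15.2% and 12.9%, and no match overlapped one of the other motif. The stretches below, from the RefSeq WBcel235 genome, show CTCCGCCC in capitals upstream of occupied and of well-known genes, each read on the strand that spells the motif. The first lies at chrX:13145395-13145402, 264 bp from the optimal summit, and the second at chrIV:14033550-14033557, 336 bp from it.
mir-54 (304 bp upstream): cgaggaaaaatCTCCGCCCctaaacgtaca
mir-52 (454 bp upstream): gacaccaatctCTCCGCCCcgtctcttccc
mir-80 (162 bp upstream): gcaagtcacccCTCCGCCCcaccgactgtt
lin-4 (171 bp upstream): gtccatccatcCTCCGCCCcatcactccca
mir-48 (752 bp upstream): agaaattcaagCTCCGCCCctaatgatttc
mir-35 (142 bp upstream, other strand): caccattgggtCTCCGCCCatttggtgtag

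The motif was found at 5 of 15 occupied genes (33.3%) and at 30 of 246 others (12.2%). The 5 were mir-54, mir-55, mir-56, mir-52 and mir-2, and the first 3 share 1 match, so they stand for 3 of 13 occupied loci. Of 25 loci with the motif, 14 had candidates in both replicates (56.0%, interval 34.9 to 75.6%), beside 62 of 198 loci without it (31.3%, interval 24.9 to 38.3%). Those intervals overlap. For GAGANGAG the shares were 11 of 38 loci with it (28.9%) and 65 of 185 without it (35.1%). A match is a run of letters and not a shown binding site.

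The 17 protein-coding genes of the miRNA pathway that were examined beside the loci were drsh-1, pash-1, dcr-1, alg-1, alg-2, alg-5, ain-1, ain-2, xrn-2, nhl-2, cgh-1, ccf-1, let-711, lin-28, lin-41, lin-14 and hbl-1. None of the 17 was occupied, beside 2.33% of all protein-coding genes. A pooled candidate lay within 1000 bp of 14 of them, beside 37.6% of protein-coding genes, 12 had one in replicate 1 (39.6%) and 16 had one in replicate 2 (42.1%). The nearest pooled summit to xrn-2, which encodes an exonuclease that degrades mature miRNAs, lay 8 bp from its 5′ end and ranked 1096. That of let-711, which encodes the scaffold of the deadenylase complex, ranked 1512. For drsh-1, which encodes Drosha, the nearest summit ranked 28865 in the pooled list and 20016 in replicate 2, but that of replicate 1 ranked 699, among its strongest 887, and lay 548 bp downstream of the 5′ end. For dcr-1, which encodes Dicer, the nearest summits ranked 18909 in the pooled list, 24826 in replicate 1 and 11310 in replicate 2. For alg-1, which encodes an Argonaute, they ranked 18921, 14124 and 12533.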

How the data were processed

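Both replicates were used, and no sample was left out. The authors deposited lists of regions on ce11 with a signal value per region, with a scale that was not given in the sources used here. Per the labels and file names, these are candidate regions (peaks and background, made as input for IDR) for each replicate and for both pooled, and optimal peaks past an IDR threshold. The aligner, peak caller and threshold were not given there either. Lists on ce10 were not used.

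Summits were compared with the 5′ ends of genes in Ensembl release 115, with names from RefSeq, using Python 3.11.15, pandas 2.3.3 and scipy 1.17.1. A summit within 1000 bp counted. Neighbours were sought within 500 bp, small RNA genes at summits within 250 bp, and clusters by steps of at most 2000 bp. Intervals are exact at 95% and cover counting error over genes. With 1 group there was no test between conditions. The counting was tested on simulated data.

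The genes, families and motifs named were chosen with earlier results of these data known. Named were all occupied genes and their clusters, the 5 strongest other genes by pooled rank, and a list of well-known miRNA and pathway genes. The alternatives varied the window, the point of the gene, the part of the peak, the strength, the replicate and the counting of clusters.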

Additional observations from a re-analysis of the deposited data

How the results depend on the processing

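The number of occupied genes, 15 of 261, was 7 at 250 bp (other genes 1.69%), 10 at 500 bp and 28 at 2000 bp (10.7%, other genes 4.35%). It was 8 in the stronger part of the optimal list above its median and 131 with all pooled candidates. From 1 replicate's strongest 887 regions it ranged from 10 (without replicate 2) to 14 (without replicate 1). It was 12 without peaks near small RNA genes (other genes 1.09%). The 95 genes with candidates in both replicates became 33 at 250 bp and 63 above the median of each list. The share lay above that of other genes under each of these settings. Of the occupied genes, mir-52, mir-54 and mir-55 were so under all 11 alternatives run per gene, and mir-237 under 4. Without replicate 2, mir-2, mir-51, mir-5595, mir-354, mir-353, mir-1819, mir-4921 and mir-237 were lost, and without replicate 1, mir-62 and mir-237 were. The cause of these shifts was not tested. No paired analysis was possible because the 2 replicates form 1 group with no second condition. Depth is unknown, so a gene with no region is not shown to lack the polymerase.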
